A study of Homo sapiens with 12 samples.

Results

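The comparison described here is between the control cells of MEC1 and JVM2, established lines of neoplastic human B cells used as models of chronic lymphocytic leukemia (CLL). Its members are the 6 control libraries of a series of 12, 3 of MEC1-CTRL and 3 of JVM2-CTRL, joined over the 16052 genes that the count tables of both lines list. MEC1-CTRL cells carry a stable shRNA knock-down of *UGT2B17*, a UDP-glucuronosyltransferase that conjugates steroids, and were kept under puromycin. JVM2-CTRL cells carry the empty pcDNA6 vector and were kept under blasticidin. The 6 other libraries, 3 of MEC1-2B17 and 3 of JVM2-2B17, come from cells with a pcDNA6 vector that expresses *UGT2B17*, under blasticidin in both lines. Each line descends from 1 donor, so the samples compare these lines and not the diseases they came from.

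A mature B cell is recognised by surface CD20 and the CD79 pair that anchors the B cell receptor, and by PAX5, the factor that holds the lineage. Activation and the turn towards an antibody-secreting plasma cell bring PRDM1, CD38 and SDC1, and switching replaces the IgM and IgD heavy chains with IgG or IgA. CLL cells are usually CD5+ and CD23+ (*FCER2*), whereas mantle cell lymphoma is known for cyclin D1. A checkpoint that answers DNA damage halts the cycle or starts cell death through genes such as *CDKN1A*, *GADD45A* and *BBC3*.

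MEC1-CTRL libraries held 33309861 to 37744991 counts and JVM2-CTRL libraries 9382415 to 10708355, a ratio of 3.49 between the summed libraries. Genes in both tables took 98.6% to 99.5% of the counts of each control library. Mitochondrial genes took 0.561% to 0.860% of counts and ribosomal protein genes 6.68% to 7.90%. Immunoglobulin genes took 0.208% to 0.221% in MEC1-CTRL and 2.23% to 2.42% in JVM2-CTRL. Depth, construct, antibiotic and possibly the sequencing site differ between the groups together with the line. These cannot be told apart from the line in the control samples. As the samples are bulk RNA, fewer cells expressing a gene and less of its RNA per cell cannot be told apart either.

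*UGT2B17* itself (ENSG00000197888), the gene that the shRNA targets, was listed in every library. It had 11.2, 10.2 and 9.81 CPM (read counts of a gene scaled to a common library size, after correction by the trimmed mean of M-values) in MEC1-CTRL and 31.6, 27.8 and 29.1 CPM in JVM2-CTRL. In the 2B17 populations the values were 21.2, 19.4 and 18.7 CPM in MEC1 and 37.5, 48.0 and 37.8 CPM in JVM2. Within each line every 2B17 library lay above every control library, and the control groups did not overlap between the lines, with a log2 difference, MEC1 minus JVM2, of -1.50 (SE 0.08, adjusted *P* = 2.7e-13). *UGT2B15*, a near-identical relative whose reads can be exchanged with those of *UGT2B17*, was at 1.05 ± 0.08 CPM in MEC1-CTRL and 1.94 ± 0.89 in JVM2-CTRL (SD, *n* = 3), which makes it uncertain. *UGDH*, which makes the sugar donor of these enzymes, was at 79.7 ± 1.1 and 74.9 ± 4.7 CPM, and the difference did not pass the test (log2 0.09, SE 0.05). Of 23 genes of this enzyme family and its sugar supply, 8 were tested. Of these 5 were higher in JVM2-CTRL, 1 in MEC1-CTRL and 2 did not pass, where 81.1% of all genes tested passed. The pair past a test for more than 2-fold was *UGT2B17* and, towards MEC1-CTRL, *UGT8*, which glycosylates ceramide (log2 4.79). That is 25% of the 8, near the 25.4% of all genes tested.

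Most of the transcriptome differed between the lines. Of the 14705 joined genes with enough counts to test, 11933 (81.1%) differed at an adjusted *P* below 0.05 by the edgeR quasi-likelihood test, 6076 (41.3%) higher in MEC1-CTRL and 5857 (39.8%) higher in JVM2-CTRL. The median absolute log2 difference was 0.633. Because replicates varied little (a common biological coefficient of variation of 4.72%), small differences passed, and a second test asked whether the difference exceeded 2-fold. It called 3728 genes (25.4%), of which 1765 (12%) were higher in MEC1-CTRL and 1963 (13.3%) in JVM2-CTRL, and 596 of them had a log2 difference of 4 or more in size. Scaling by library size alone, without the trimmed mean of M-values, would have put 60.5% of the called genes on the MEC1-CTRL side in place of 50.9%. Counts of list members below are read against these shares. The libraries of the lines did not overlap for 82.8% of the genes tested, so that non-overlap by itself sets a gene little apart.

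**Figure D1:**
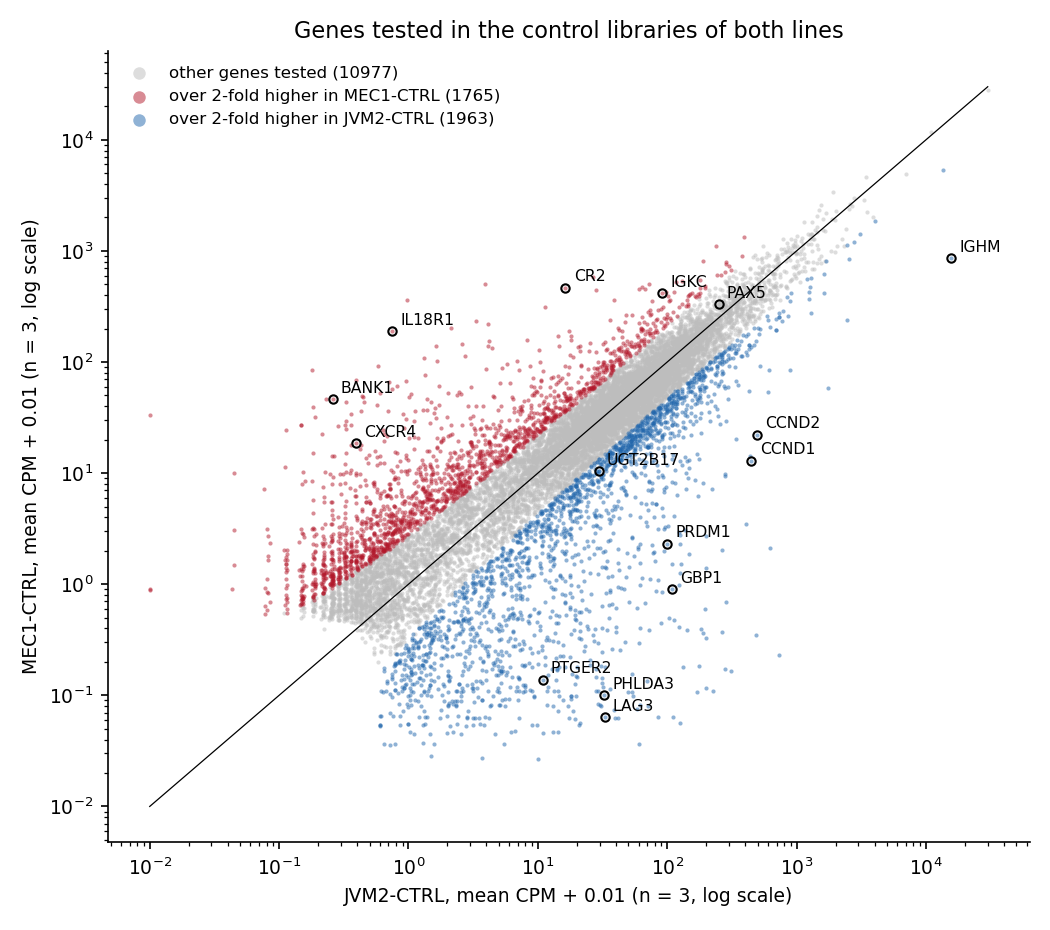
Mean CPM of each tested gene in JVM2-CTRL (horizontal, log scale) and MEC1-CTRL (vertical, log scale), each the mean of 3 libraries plus 0.01; the line marks equal levels. The 1765 red genes and 1963 blue genes passed the over 2-fold test and lie on either side of a grey band of the remaining genes, with *IGHM* the most abundant of the labelled genes.

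The genes with the largest differences were close to on and off. Among protein-coding genes of at least 20 CPM in the higher line, those highest in MEC1-CTRL relative to JVM2-CTRL were *LDLRAD3*, *FRMD4B*, *IL18R1*, *NHSL1*, *MYO1F*, *KLF3*, *RNF125*, *BANK1* and *TRERF1*. *LDLRAD3* had 32.8, 34.2 and 32.5 CPM in MEC1-CTRL and no count in JVM2-CTRL, so it was at least 314.5-fold higher, taking 3 counts summed over the group as the limit for JVM2-CTRL. *IL18R1*, the ligand-binding chain of the interleukin 18 receptor, had 198, 194 and 180 CPM against 0.844, 0.692 and 0.678 CPM, a log2 difference of 8.003 (SE 0.10, adjusted *P* = 4.1e-24). *KLF3*, a zinc finger repressor, had 46.1, 45.5 and 47.6 CPM in MEC1-CTRL and at most 0.452 CPM in JVM2-CTRL.

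Highest in JVM2-CTRL were *CNN3*, *LRRK2*, *TMEM119*, *NLRP2*, *LARP6*, *PLOD2*, *EPHA3*, *ABCA12*, *GALM* and *PLS3*, several of which are better known outside lymphocytes. *CNN3*, an actin-binding calponin, had 121, 132 and 124 CPM in JVM2-CTRL and at most 0.0851 CPM in MEC1-CTRL (log2 difference -11.30, SE 0.12). Its MEC1-CTRL level rests on 5 counts, and leaving out single libraries moved the difference from -11.92 (without MEC1-CTRL replicate 3) to -10.97. *LRRK2*, a kinase mutated in familial Parkinson disease, had 220, 226 and 230 CPM against at most 0.165 CPM (log2 -11.08, SE 0.10). *EPHA3*, an ephrin receptor, had 261, 292 and 279 CPM against at most 0.220 CPM, and *PLS3*, the actin bundler T-plastin, 487, 482 and 497 CPM against at most 0.400 CPM. All of the genes named in these lists also differed in the same direction between the 2B17 populations.

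A further set of genes appeared in the table of 1 line only. There were 6389 genes listed for MEC1 alone and 1092 listed for JVM2 alone. The smallest row total was 10 counts over the 6 libraries in each table, which corresponds to 0.0491 CPM in MEC1 and 0.169 CPM in JVM2. Most of these genes were barely expressed, since 5934 of the former and 671 of the latter averaged under 1 CPM in the control libraries (here scaled to the library total). At 10 CPM or more there were 102 genes in the MEC1 table only, 93 of them protein coding, and 125 in the JVM2 table only, 105 of them protein coding.

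The highest protein-coding genes of the MEC1 table alone were *PSAT1*, *KIAA0226L*, *ERICH3*, *LEPREL1*, *YBX3*, *PRKD3*, *GOLM1*, *DSG2*, *FAM101B* and *PTK2*. *PSAT1*, the phosphoserine aminotransferase of serine synthesis, had 556, 523 and 447 CPM in MEC1-CTRL. *PTK2*, the focal adhesion kinase, averaged 66.6 ± 1.8 CPM. Below them, *T*, the gene of the mesodermal factor brachyury, averaged 64.4 ± 2.6 CPM.

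The corresponding genes of the JVM2 table alone were *BBOX1*, *GPR125*, *MUC13*, *PRRX1*, *AMOTL1*, *PRL*, *CPXM1*, *EDIL3*, *MAGEA3* and *MAGEA1*. *BBOX1*, the last enzyme of carnitine synthesis, had 212, 208 and 200 CPM in JVM2-CTRL, and *PRL*, which encodes prolactin, 105, 101 and 103 CPM. *MAGEA1*, a cancer-testis antigen gene, had 79.1, 85.9 and 88.5 CPM in JVM2-CTRL but averaged 0.135 CPM in JVM2-2B17, so that its presence in the table rests on the control population. A gene absent from a table has no test here, and its level in the other line is bounded only if the tables dropped rows for low totals, which the sources used here do not state.

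Pan-B genes differed in both directions. All 22 genes of a pan-B list were tested, and all 22 differed, 14 higher in MEC1-CTRL and 8 higher in JVM2-CTRL, with a median log2 difference of 0.43 against 0.038 over all genes. Over 2-fold, 8 were higher in MEC1-CTRL and 2 in JVM2-CTRL. *MS4A1* (CD20) had 861, 847 and 876 CPM in MEC1-CTRL and 502, 560 and 569 in JVM2-CTRL. *PAX5* had 344, 321 and 326 CPM against 250, 249 and 250, a log2 difference of only 0.41 (SE 0.04). Both of these genes were above 200 CPM in all 6 libraries. Others were low, and *CD24* averaged 3.49 ± 0.37 CPM in MEC1-CTRL and 0.459 ± 0.128 in JVM2-CTRL.

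Other genes of the list differed more. *CR2* (CD21), the complement receptor of mature B cells, had 487, 461 and 454 CPM in MEC1-CTRL and 17, 14.6 and 17.3 in JVM2-CTRL (log2 difference 4.84, SE 0.06, adjusted *P* = 5.8e-24). *CD22*, an inhibitory lectin, stood at 458 ± 18 against 60.6 ± 2.6 CPM, and *BANK1*, a B cell scaffold, at 46.4 ± 2.7 against 0.249 ± 0.078. The subunits of the receptor's signalling pair moved apart, with *CD79A* lower in MEC1-CTRL (log2 -1.27, SE 0.04) and *CD79B* higher (1.15, SE 0.05). *FCRLA*, an intracellular Fc receptor-like protein, was the gene of this list furthest towards JVM2-CTRL, at 91.9 ± 7.2 against 523 ± 2 CPM.

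**Figure D2:**
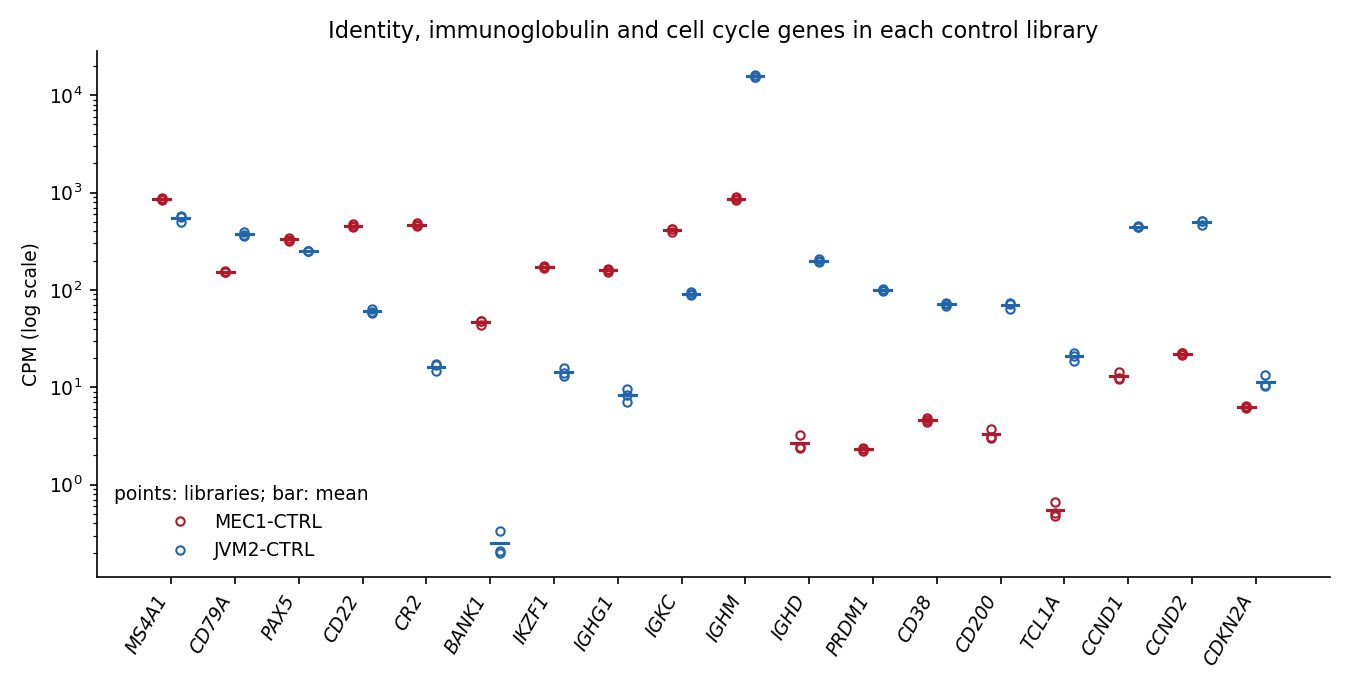
CPM (log scale) of named genes in each control library, MEC1-CTRL in red and JVM2-CTRL in blue; circles are libraries and bars the means of 3. The replicates lie close together, *MS4A1*, *CD79A* and *PAX5* at the left differ less than the genes beside them, and *IGHD*, *PRDM1*, *CD38*, *CD200*, *TCL1A*, *CCND1* and *CCND2* are all lower in MEC1-CTRL.

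Immunoglobulin transcripts differed between the lines by class and by light chain, although *IGHM* was above *IGHG1* in both lines. *IGHM* had 854, 836 and 900 CPM in MEC1-CTRL and 16210, 15520 and 15260 in JVM2-CTRL (log2 difference -4.18, SE 0.03), and *IGHD* 2.42, 3.24 and 2.41 against 206, 196 and 191 CPM. *IGHG1* went the other way, with 154, 159 and 164 CPM in MEC1-CTRL and 9.60, 8.31 and 7.0 in JVM2-CTRL (log2 4.25, SE 0.07). The kappa constant gene *IGKC* had 422, 398 and 420 CPM against 95.5, 89.9 and 87.7. The lambda constant gene *IGLC2* averaged 3556 ± 350 CPM in JVM2-CTRL and was not in the MEC1 table. *IGJ*, the joining chain of polymeric antibody, was higher in JVM2-CTRL as well (276 ± 8 against 1301 ± 38 CPM). All 7 tested genes of the constant-region list were past the over 2-fold test, 3 towards MEC1-CTRL and 4 towards JVM2-CTRL. Reads of heavy chain genes of one class can be exchanged between near-identical copies, so the values of *IGHG1* and *IGHG3* are uncertain as a split.

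Genes of activation and plasma cell fate lay mostly towards JVM2-CTRL. Of 20 tested, 15 were higher in JVM2-CTRL and 4 in MEC1-CTRL, and over 2-fold the counts were 9 and 1. *PRDM1* (BLIMP1), which drives the plasma cell program, had 2.40, 2.31 and 2.24 CPM in MEC1-CTRL and 100, 96.9 and 102 in JVM2-CTRL. *CD38* had 4.42, 4.83 and 4.59 CPM against 72.9, 68.9 and 72.2, and *SDC1* (CD138) averaged 62.1 ± 2.1 against 355 ± 10. *IRF4*, which works with *PRDM1*, was abundant in both lines and within 2-fold (1113 ± 15 and 2066 ± 27 CPM). The single exception over 2-fold was *TNFRSF9* (4-1BB), at 12.3 ± 0.6 CPM in MEC1-CTRL and 0.640 ± 0.244 in JVM2-CTRL.

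Of the B-lineage transcription factors, 34 of 40 were tested, and over 2-fold 5 were higher in MEC1-CTRL and 6 in JVM2-CTRL, shares near those of all genes. *IKZF1* (Ikaros) had 169, 170 and 174 CPM in MEC1-CTRL and 13.2, 15.7 and 13.9 in JVM2-CTRL (log2 difference 3.58, SE 0.06). *IKZF3* (Aiolos), a close relative, went the other way, at 101 ± 3 against 284 ± 11 CPM. *IRF8*, an early B cell and germinal centre factor, averaged 281 ± 7 against 70.5 ± 0.1 CPM. *BACH2*, which opposes *PRDM1*, was near 0 in MEC1-CTRL and low in JVM2-CTRL (0.0544 ± 0.0480 and 3.89 ± 1.59 CPM). The coactivator *POU2AF1* did not pass the test, at 116 ± 0 and 109 ± 11 CPM.

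The CLL and mantle cell immunophenotype genes gave a mixed account of both labels. *CD5* and the mantle cell factor *SOX11* were in neither table. *FCER2* (CD23) was expressed in both lines, with 142, 139 and 142 CPM in MEC1-CTRL and 323, 305 and 320 in JVM2-CTRL. *CD200*, used to separate CLL from mantle cell lymphoma, had 3.77, 3.05 and 3.09 CPM against 64.2, 72.3 and 73.2. *LEF1*, a CLL marker, averaged 16.4 ± 0.8 CPM in MEC1-CTRL and *ZAP70*, a prognostic kinase, 1.97 ± 0.30 CPM, and neither was in the JVM2 table. *LPL*, another prognostic gene, averaged 2.62 ± 0.21 CPM in JVM2-CTRL and was not in the MEC1 table. Among the 13 of 28 genes tested, 2 were over 2-fold higher in MEC1-CTRL and 7 in JVM2-CTRL, *TCL1A* among the latter (0.548 ± 0.098 against 20.8 ± 2.2 CPM).

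Cyclin D genes distinguished the lines strongly. *CCND1* had 12.2, 12.4 and 14.4 CPM in MEC1-CTRL and 457, 440 and 446 in JVM2-CTRL (log2 difference -5.11, SE 0.06, adjusted *P* = 1.3e-24). *CCND2* had 22.6, 21.5 and 22.4 CPM against 467, 507 and 507 (log2 -4.47, SE 0.05). *CCND3* was close between them, at 35.8 ± 0.3 and 41.1 ± 0.7 CPM. Their partner *CDK6* did not pass the test (322 ± 30 and 307 ± 32 CPM). Among the brakes, *RB1* averaged 35.4 ± 1.1 against 209 ± 18 CPM, whereas *CDKN2C* (p18) averaged 65 ± 2.4 against 5.05 ± 0.67. Over the 22 tested genes of cell cycle entry, 1 was over 2-fold higher in MEC1-CTRL and 5 in JVM2-CTRL.

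DNA damage checkpoint genes lay mostly towards JVM2-CTRL. Of 27 tested, 23 were higher in JVM2-CTRL and 2 in MEC1-CTRL, with a median log2 difference of -0.79, and over 2-fold the counts were 12 and 1. *PHLDA3*, an AKT inhibitor (ENSG00000174307; chr1:201464278-201469237, minus strand, GENCODE v44 on GRCh38), had 0.0749, 0.0549 and 0.142 CPM against 33.4, 31.5 and 32.1 (log2 difference -8.41, SE 0.16). *CDKN1A* (p21) averaged 67.5 ± 3.9 against 342 ± 3 CPM, *MDM2*, a ubiquitin ligase, 136 ± 3 against 443 ± 21, and *GADD45A* 2.43 ± 0.20 against 35.1 ± 1.0. *EDA2R* (26 ± 0.6 CPM) and *SPATA18* (2.22 ± 0.38 CPM), further genes of the list, were in the JVM2 table only, and the death receptor gene *TNFRSF10A* (14.4 ± 0.8 CPM) in the MEC1 table only. *SESN2*, which other stress pathways also induce, was the single member over 2-fold higher in MEC1-CTRL (145 ± 9 against 56.2 ± 5.3 CPM). All 13 genes of this list past the over 2-fold test kept their direction in the 2B17 populations.

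In the BCL2 family, *BCL2* itself had 273, 275 and 259 CPM in MEC1-CTRL and 215, 237 and 241 in JVM2-CTRL (log2 difference 0.22, SE 0.05). Of 13 tested, *BCL2L11* (BIM) was over 2-fold higher in MEC1-CTRL, and *BCL2L1* (BCL-XL), *BMF* and *BBC3* (PUMA) in JVM2-CTRL. *BCL2L10* was in the MEC1 table only, at 5.74 ± 0.22 CPM.

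The lines also differed by chromosome arm. Over the 249 tested genes of the short arm of chromosome 17, the median log2 difference was -1.10, with 115 genes over 2-fold higher in JVM2-CTRL and 6 in MEC1-CTRL. The median was -1.10 in the window from base 1 to 10000000 and -1.10 from 10000001 to 20000000, and it was -0.05 over the 54 genes from 20000001 to 30000000, where the arm ends. Relative to the median of all tested autosomal genes of the same library, in log2(CPM + 1), the genes of 17p stood at -1.24, -1.18 and -1.19 in MEC1-CTRL and -0.32, -0.30 and -0.36 in JVM2-CTRL. The 2B17 populations gave a median of -1.01 for the arm.

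Of the 39 arms, 17p was the furthest from 0. On the side of JVM2-CTRL followed 6q (median -0.51 over 291 genes), 3q (-0.38 over 434) and 12q (-0.22 over 610). On the side of MEC1-CTRL were 7p (0.69 over 227), 9q (0.63 over 391), 13q (0.43 over 259) and 8p (0.34 over 153). Within 8p the median was 1.07 from base 1 to 10000000 (20 genes) and 1.11 from 10000001 to 20000000 (26 genes). On 13q it was 0.97 from 90000001 to 100000000 (23 genes) and 0.99 from 110000001 to 120000000 (27 genes). The medians of these windows were close in size to those of the first 2 windows of 17p, so 17p was furthest only as a whole arm. Medians were calculated for arms with at least 20 tested genes, and genes of an arm are not replicates of it, so no test was made. For 9q the median was 0.21 between the 2B17 populations, and on the scale relative to all autosomal genes the arm stood at 0.75 to 0.77 in the MEC1-CTRL libraries and 0.36 to 0.44 in the MEC1-2B17 libraries, against 0.06 to 0.14 in JVM2-CTRL. DNA copy number was not measured in these samples.

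**Figure D3:**
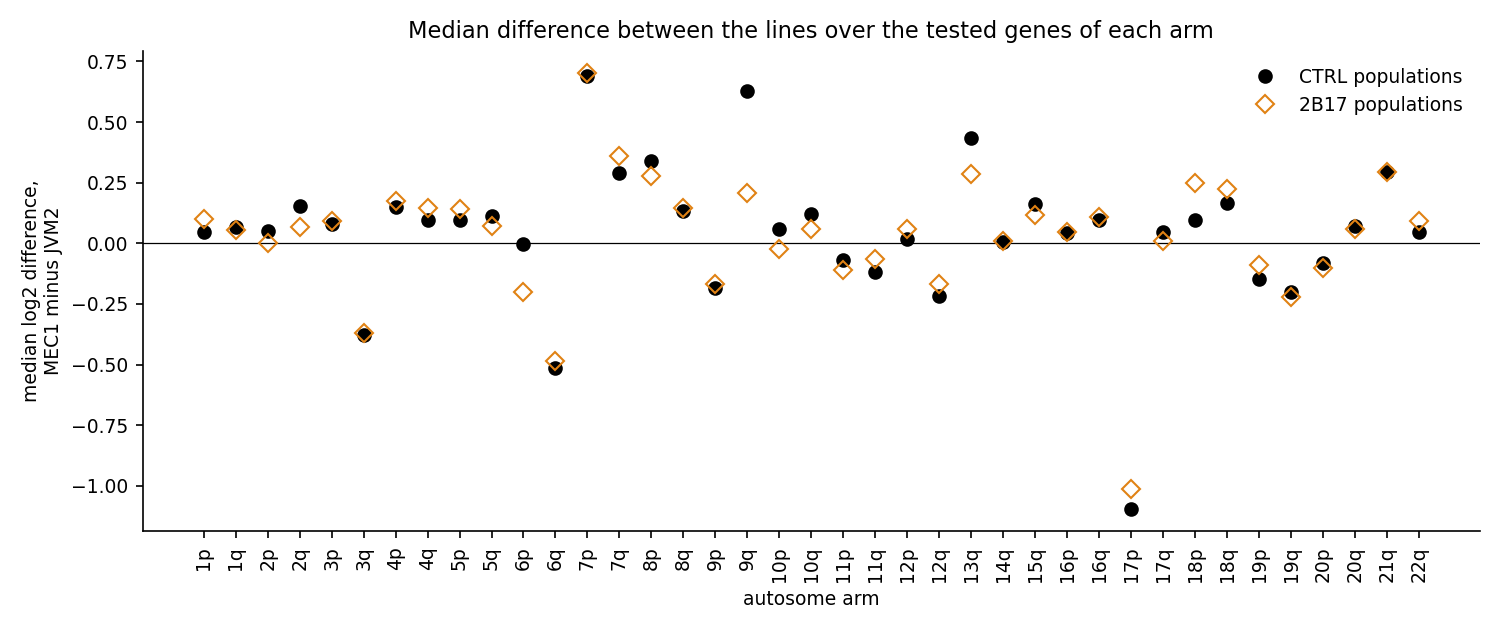
Median log2 difference, MEC1 minus JVM2, over the tested genes of each autosome arm, in the control populations (black circles) and the 2B17 populations (orange diamonds). The short arm of chromosome 17 lies at -1.10 and -1.01, apart from the remaining arms, and 9q has the widest gap between the populations.

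B cell receptor signalling genes leaned towards MEC1-CTRL. All 38 were tested, and over 2-fold 10 were higher in MEC1-CTRL and 4 in JVM2-CTRL. The core kinases were not uniform. *SYK* averaged 54.6 ± 1.8 against 151 ± 8 CPM and *FYN* 224 ± 7 against 60.8 ± 1.7, while *BTK* (130 ± 5 and 135 ± 9 CPM) did not pass the test. *PRKCB*, a protein kinase C of the pathway, averaged 115 ± 2 against 412 ± 7 CPM, and *RASGRP1*, which loads RAS, 2.59 ± 0.44 against 53 ± 3.3. *SYK*, *PRKCB* and *RASGRP1* were thus on the JVM2-CTRL side, which held fewer genes over 2-fold. *VAV3*, an exchange factor of the pathway, had a log2 difference of 4.02 between the controls but -1.23 between the 2B17 populations. Of the 14 list genes past the over 2-fold test, 13 were called in the same direction there.

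Toll-like receptor genes were the list with the highest share towards MEC1-CTRL. Of 19 tested, 10 were over 2-fold higher in MEC1-CTRL and 1 in JVM2-CTRL, and the median log2 difference was 1.34. *TLR10*, a B cell member of the family, averaged 450 ± 4 against 66.9 ± 6.8 CPM, and *TLR1*, a receptor for bacterial lipopeptides, 75.3 ± 1.2 against 14.4 ± 0.7. The kinases *IRAK2* (40.2 ± 3.7 against 3.76 ± 1.03 CPM) and *IRAK3* (60.7 ± 3.6 against 8.86 ± 0.89) went with them. The adaptor *MYD88* was within 2-fold and higher in JVM2-CTRL (34.6 ± 1.9 against 46.8 ± 2.7 CPM), as was the nucleic acid sensor *TLR7*. *TLR9* was in neither table. *TLR4* and *TLR8* had 5 counts or fewer over the JVM2-CTRL libraries together. Of the 11 genes of this list past the over 2-fold test, 9 were called in the same direction between the 2B17 populations. There the log2 difference was 0.52 for *TLR4* and -1.96 for *TLR8*.

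NOTCH pathway genes past the over 2-fold test were all on the MEC1-CTRL side, 6 of 21 tested, although 8 smaller differences were in favour of JVM2-CTRL. *HES1*, a direct target of NOTCH, had 13.4, 15.7 and 14.3 CPM in MEC1-CTRL and 0.528, 0.593 and 0.339 in JVM2-CTRL. The feedback inhibitor *NRARP* averaged 6.68 ± 1.18 against 1.13 ± 0.21 CPM and the ligand *JAG1* 19.3 ± 0.3 against 3.42 ± 0.82. *DTX1*, another target, averaged 44.9 ± 0.3 CPM in MEC1-CTRL and was not in the JVM2 table. Of the receptors, *NOTCH2* was higher in MEC1-CTRL (16.3 ± 0.9 against 5.25 ± 0.64 CPM) and *NOTCH1* nearly equal (52.1 ± 0.6 and 56.3 ± 2.6).

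Among 21 tested costimulation and checkpoint genes, 14 were higher in JVM2-CTRL and 6 in MEC1-CTRL, and over 2-fold the counts were 10 and 1. The 6 were *HAVCR2*, *CD28*, *CD47*, *ICOSLG*, *VSIR* and *CD58*. *CD86*, a ligand of CD28, averaged 31.4 ± 2.9 against 179 ± 4 CPM, *CD274* (PD-L1) 17.3 ± 0.4 against 70.7 ± 0.9 and *CD276* (B7-H3) 0.396 ± 0.071 against 61.7 ± 1.6. *LAG3*, an inhibitory receptor, had 0.0749, 0 and 0.0851 CPM in MEC1-CTRL and 31.3, 34.0 and 33.0 in JVM2-CTRL. *HAVCR2* (TIM-3), another inhibitory receptor, was the gene over 2-fold higher in MEC1-CTRL (13 ± 1.0 against 0.980 ± 0.185 CPM).

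Antigen presentation differed by class. In the class I list, 15 of 18 genes were higher in JVM2-CTRL and 1 in MEC1-CTRL, with a median log2 difference of -0.78, and 6 passed the over 2-fold test, all towards JVM2-CTRL, or 3 when scaled by library size alone. *TAPBP*, which loads peptide, had 201, 195 and 205 against 520, 514 and 515. The 17 class II genes were split, 7 higher in each line, with 3 over 2-fold higher in MEC1-CTRL and 2 in JVM2-CTRL. *HLA-DQB1* averaged 144 ± 4 against 50.7 ± 1.3 CPM, and *HLA-DMA*, which edits class II peptides, 42.8 ± 0.5 against 131 ± 2. Reads of HLA genes can be shared between near-identical genes, which makes the split among them uncertain.

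Homing receptors were exchanged between the lines. *CXCR4*, the receptor for the stromal chemokine CXCL12, had 17.3, 21 and 18 CPM in MEC1-CTRL and 0.317, 0.494 and 0.339 in JVM2-CTRL (log2 difference 5.58, SE 0.22). *CXCR5*, which guides cells to follicles, had 0.674, 0.576 and 0.312 CPM against 17.8, 16.3 and 14.9. *CCR7*, which serves entry into lymph nodes, averaged 49.3 ± 1.7 against 206 ± 11. The adhesion receptors *CD44* (44.7 ± 1.5 against 217 ± 14 CPM) and *ITGB1* (40.5 ± 0.9 against 235 ± 8) were higher in JVM2-CTRL. In all, 4 of 28 tested genes were over 2-fold higher in MEC1-CTRL and 9 in JVM2-CTRL.

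Secreted factors followed no single direction, with 5 of 30 tested cytokine and chemokine genes over 2-fold higher in MEC1-CTRL and 9 in JVM2-CTRL. *CCL3*, a chemokine that stimulated B cells release, had 52.7, 54.4 and 55.5 CPM against 560, 625 and 614. *TNFSF13* (APRIL) averaged 0.353 ± 0.131 against 13.6 ± 1.0 CPM. *IL10* averaged 20.8 ± 0.9 against 1.00 ± 0.44 CPM and *LTB*, lymphotoxin beta, 37 ± 2.0 against 1.38 ± 0.36. Of the receptors, 5 of 28 were over 2-fold higher in MEC1-CTRL and 7 in JVM2-CTRL. *IL2RA* (CD25) lay with JVM2-CTRL, at 0.244 ± 0.083 against 10.8 ± 0.8 CPM, and *IL13RA1* with MEC1-CTRL, at 12.1 ± 0.6 against 0.313 ± 0.085.

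All 42 interferon response genes were tested, and 27 were higher in JVM2-CTRL and 14 in MEC1-CTRL, with 10 and 4 over 2-fold. *GBP1*, a guanylate-binding protein, had 0.949, 0.823 and 0.907 CPM in MEC1-CTRL and 106, 108 and 111 in JVM2-CTRL. *OAS3* averaged 27.6 ± 0.6 against 255 ± 10 CPM and *STAT2* 114 ± 6 against 381 ± 5. *RSAD2* (7.27 ± 0.69 against 0.343 ± 0.320 CPM) and *CMPK2* (22.2 ± 1.8 against 3.82 ± 0.78), which are neighbouring genes, lay on the MEC1-CTRL side. NF-kB and CD40 genes were the most alike of the signalling lists, with 3 of 30 over 2-fold in either direction.

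The study asked about prostaglandin E2, a lipid mediator made from arachidonic acid, and its receptors EP2 (*PTGER2*) and EP4 (*PTGER4*) both raise cyclic AMP. *PTGER2* had 0.0499, 0.137 and 0.199 CPM in MEC1-CTRL and 9.29, 12.3 and 11.1 in JVM2-CTRL, a log2 difference of -6.38 (SE 0.24, adjusted *P* = 6.2e-16). *PTGER4* had 2.32, 2.17 and 2.72 CPM against 2.43, 1.88 and 1.92. Its groups overlapped, and the log2 difference of 0.21 (SE 0.21) did not pass the test. *PTGER1* and *PTGER3* were in neither table. At these levels a receptor rested on few reads, since *PTGER4* had 268 counts over the MEC1-CTRL libraries and 59 over the JVM2-CTRL libraries. *PTGER2* had fewer still in MEC1-CTRL, and its log2 difference ranged from -6.79 to -5.95 when single libraries were left out.

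Of the enzymes, the cyclooxygenase *PTGS1* averaged 0.466 ± 0.016 CPM in MEC1-CTRL and 5.55 ± 0.14 in JVM2-CTRL, while *PTGS2* was listed for JVM2 only, at 0.129 ± 0.141 CPM. *HPGD*, the dehydrogenase that inactivates prostaglandins, was in the MEC1 table only (2.59 ± 0.07 CPM). *PTGES3* and *PTGES2*, synthases of prostaglandin E2, were expressed in both (369 ± 6 and 83.0 ± 3.0 CPM in MEC1-CTRL, and 581 ± 57 and 57.6 ± 1.3 in JVM2-CTRL). In the leukotriene branch, *ALOX5* had 6.59, 6.59 and 6.52 CPM against 37.7, 35.8 and 36.7, and its helper protein *ALOX5AP* 53, 50.5 and 46.1 against 4.22, 4.25 and 4.97. Over 27 tested genes of this field, 5 were over 2-fold higher in MEC1-CTRL and 7 in JVM2-CTRL.

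The study also measured both receptors by RT-qPCR, relative to reference genes, and the primers are shown because a reference gene itself differed between the lines here. Each primer below is the study's, written 5′ to 3′, forward and then reverse.
PTGER2 forward: aagaacacaagatgcaacacaaact
PTGER2 reverse: cacactgttttcatttctccaagg
PTGER4 forward: cagcagtacatctcagaccctcct
PTGER4 reverse: tgaggtctctgatattcgcaaagtc
HPRT1 forward: agttctgtggccatctgcttagtag
HPRT1 reverse: aaacaacaatccgcccaaagg
B2M forward: gggtttcatccatccgacattg
B2M reverse: tggttcacacggcaggcatact

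Both primers of each pair were found on GENCODE v44 transcripts of the gene, on 1 of 2 transcripts of *PTGER2*, 1 of 5 of *PTGER4*, 1 of 3 of *HPRT1* and 9 of 12 of *B2M*, spanning 153, 157, 157 and 167 bp. *HPRT1*, of purine salvage, had 23.6, 22.2 and 22.9 CPM in MEC1-CTRL and 22.3, 24.2 and 21.9 in JVM2-CTRL, a log2 difference of 0.00 (SE 0.07). *B2M*, the light chain of HLA class I, had 1856, 1846 and 1835 CPM against 3979, 4119 and 4032 (log2 -1.13, SE 0.02). The groups overlapped for *HPRT1* and not for *B2M*. Of 14 genes in common use as references, 12 differed, 9 higher in JVM2-CTRL, and *ACTB* (5304 ± 175 against 13490 ± 336 CPM) and *B2M* passed the over 2-fold test. With removal of the trend in GC content and length the *HPRT1* difference was -0.37 and was called.

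**Figure D4:**
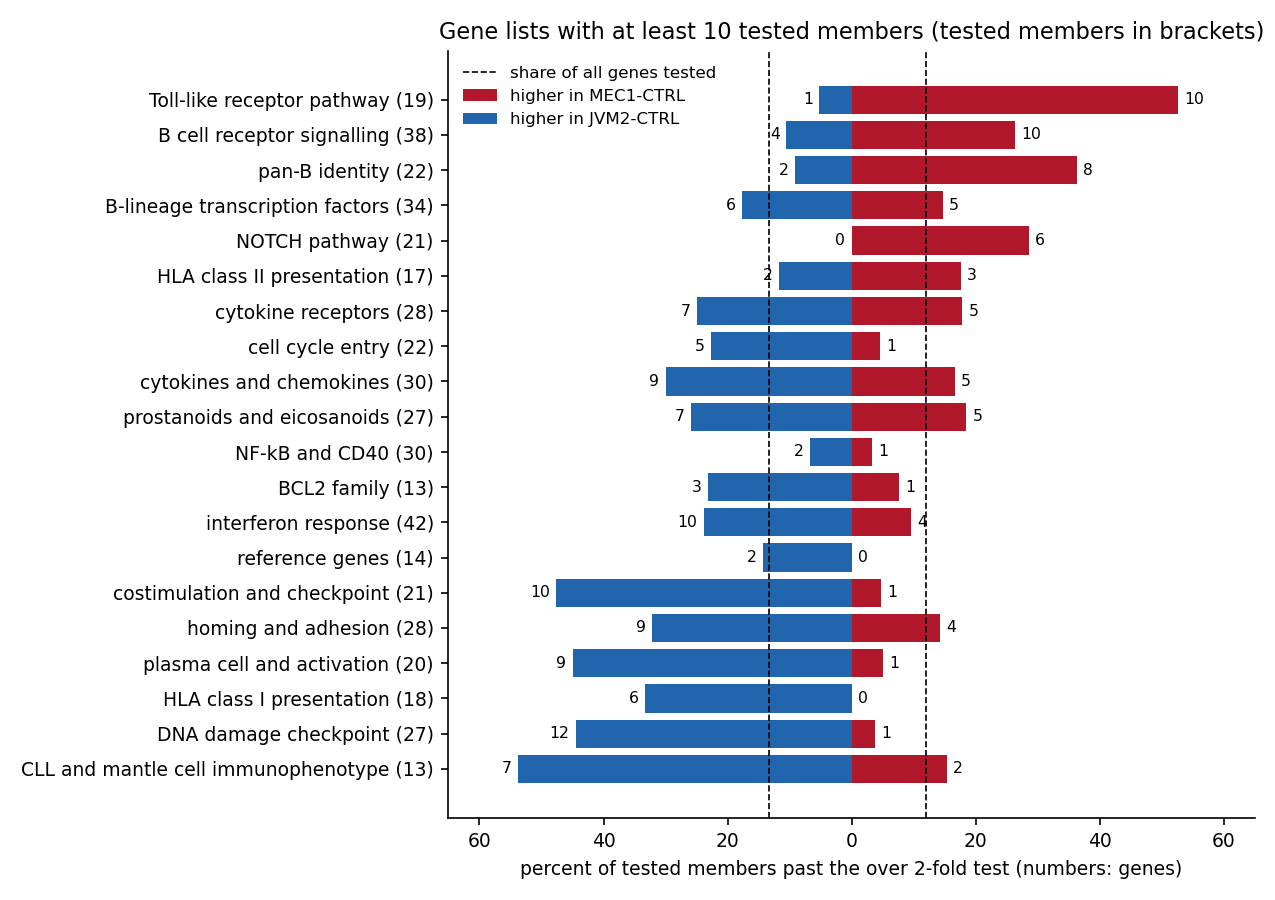
Share of the tested members of each list that passed the over 2-fold test (horizontal, percent), to the right when higher in MEC1-CTRL and to the left when higher in JVM2-CTRL, with the numbers of genes at the bar ends for lists with at least 10 tested members, ordered by median difference. Dashed lines mark the shares over all genes tested, 12% and 13.3%; the Toll-like receptor bar extends furthest to the right and the immunophenotype, costimulation, plasma cell and DNA damage bars furthest to the left.

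Markers of other cell types were checked in the same libraries. Their sums are scaled to the library total, and a gene not listed for a line adds nothing. Of 24 T and NK cell genes, 18 were listed for MEC1 and 9 for JVM2, summing to 322 to 330 CPM in MEC1-CTRL and 126 to 133 in JVM2-CTRL. Over 2-fold, 3 of the 9 tested were higher in MEC1-CTRL and 3 in JVM2-CTRL. *PRF1* (perforin) made up much of the former, at 139 ± 2 CPM against 4.12 ± 1.39. Of the T cell receptor complex, *CD3D* was in neither table, and *CD3E* and *CD3G* had 0 to 1 and 3 to 5 counts in the MEC1-CTRL libraries and were not listed for JVM2. *TRAC*, the constant gene of the T cell receptor alpha chain, was listed in both, with 17.9, 17.6 and 17.6 CPM in MEC1-CTRL and 52.5, 47.2 and 49 in JVM2-CTRL. Myeloid genes summed to 11.7 to 12.6 CPM in MEC1-CTRL and 11 to 12.5 in JVM2-CTRL, and 2 of the 3 tested were over 2-fold higher in JVM2-CTRL. *CD14* had 0 to 5 counts in the MEC1-CTRL libraries and was not listed for JVM2. *LYZ* had 9 to 17 counts in MEC1-CTRL and 2 to 5 in JVM2-CTRL, and *CSF1R* had 23 to 34 and 7 to 9. Non-hematopoietic genes summed to 33.9 to 39.4 and 69.7 to 77.8 CPM, with *CDH1* (E-cadherin) higher in MEC1-CTRL (25.1 ± 1.7 against 0.320 ± 0.122 CPM), and *KRT18* (0.462 ± 0.191 against 19.6 ± 1.1) and *PDGFRB* (0.983 ± 0.218 against 18 ± 1.5) higher in JVM2-CTRL. In this list 5 of 7 tested genes were over 2-fold higher in JVM2-CTRL and 1 in MEC1-CTRL. *EPCAM* had 30 to 45 counts in the MEC1-CTRL libraries and was not listed for JVM2. *COL1A1* had 28 to 42 counts in MEC1-CTRL and 3 to 10 in JVM2-CTRL, and *ALB* was in neither table.

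Because the control populations of the lines differ in construct and antibiotic, the line difference was measured again between MEC1-2B17 and JVM2-2B17. These are separate libraries of the same lines, and share the vector and, at different doses, the antibiotic. Depth still differed with the line, at 31762649 to 34049000 counts in MEC1-2B17 and 8809179 to 11231330 in JVM2-2B17. The sequencing site possibly did too, so neither can be told apart from the line here. Of the 11933 genes that differed between the controls, 9529 (79.9%) differed in the same direction between the 2B17 populations, 406 (3.4%) in the opposite direction, and 1998 were not called. Of the 14705 genes, 75.8% were called in the 2B17 comparison. Among the 3728 genes past the over 2-fold test, 3491 (93.6%) were called in the same direction and 42 in the opposite direction. The values of *CD22* (log2 2.88 between the 2B17 populations), *PRDM1* (-5.32), *IKZF1* (3.50) and *CD200* (-4.25) were close to those between the controls.

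For a part of the genes the size of the line difference depended on the population. The interaction of line and population was called for 4833 genes (32.9%), and exceeded 2-fold for 416 (2.83%). *MS4A1* had 556, 593 and 562 CPM in MEC1-2B17 and 734, 686 and 728 in JVM2-2B17, so that the order of the lines was turned (log2 -0.33 against 0.66 between the controls). *CR2* had 778, 852 and 816 CPM in MEC1-2B17 and 0.289, 0.478 and 0.240 in JVM2-2B17, which widened the difference. *CD38* had 9.90, 9.23 and 9.68 CPM in MEC1-2B17 and 25.1, 20.1 and 24.6 in JVM2-2B17, which narrowed it. *PTGER2* was listed at 0 in the 3 MEC1-2B17 libraries and had 6.84, 7.53 and 6.59 CPM in JVM2-2B17.

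**Figure D5:**
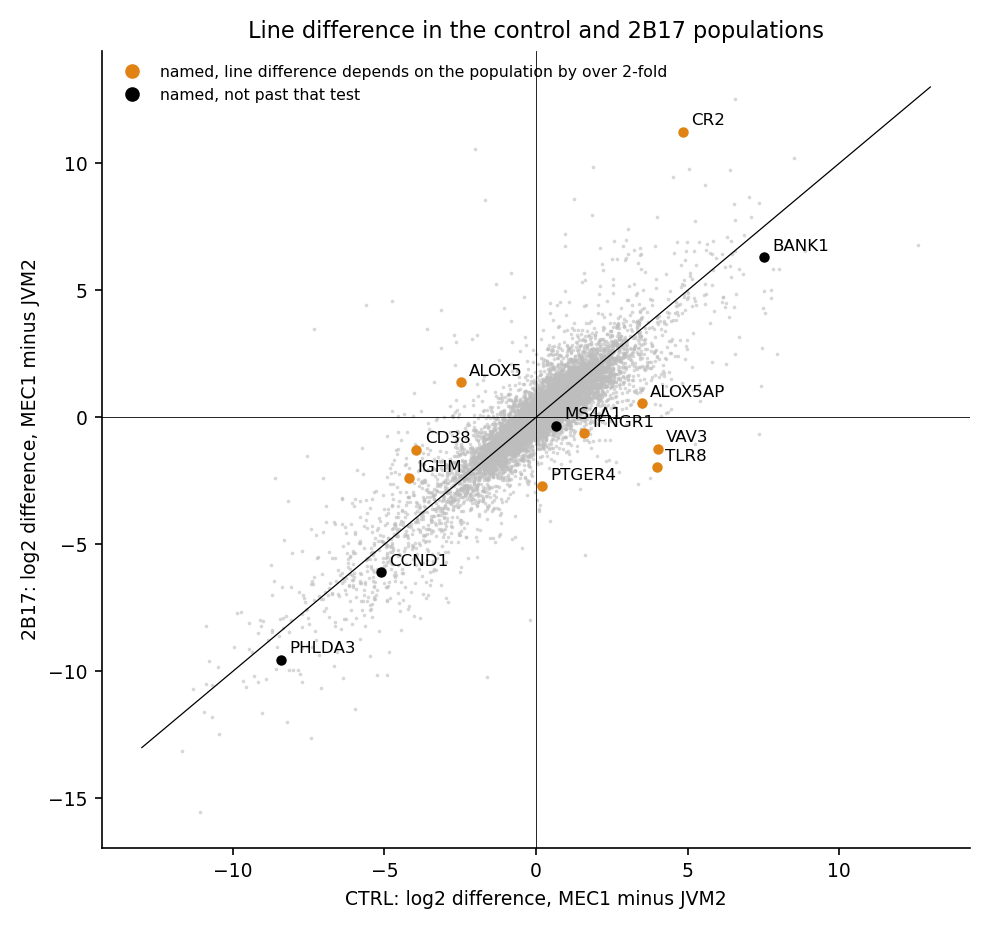
Log2 difference, MEC1 minus JVM2, of each tested gene in the control populations (horizontal) and in the 2B17 populations (vertical), with the line of equal differences; orange genes passed the over 2-fold interaction test and black named genes did not. *CCND1*, *BANK1* and *PHLDA3* keep their sign, *ALOX5*, *VAV3*, *TLR8* and *IFNGR1* have opposite signs in the populations, and *CR2* lies above the line.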

How the data were processed

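RNA was from 3 samples of each of 4 groups, which the study calls biological replicates, and libraries were rRNA-depleted, paired-end and sequenced at 2 sites that are not named per sample. The deposited values are raw read counts per gene, 1 table a line, which the authors made, per the submitters' processing notes, with Trimmomatic, TopHat2 2.0.14 and HTSeq on hg38. Their further columns, which hold normalized counts and the fold changes and *P* values of 2B17 over control cells, were not used, and 0 columns belonged to another series. Tables were joined on the Ensembl gene ID. Groups were taken from the sample titles.

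Counts of the 6 control libraries were fitted in edgeR 4.0.16 (R 4.3.3) with TMM scaling, filterByExpr (minimum count 10, minimum total 15) and the quasi-likelihood F-test, with Benjamini-Hochberg adjustment over 14705 genes and calls at 0.05. The 1347 joined genes with fewer counts were not tested. Differences over 2-fold were tested with glmTreat. The 2B17 libraries were fitted alike, and the line by population interaction in all 12 libraries. CPM values use TMM-scaled library sizes, except for genes of 1 table and the sums of marker lists, which use library totals. A gene not listed for a line adds nothing to its sums. SDs are over 3 libraries. In the self-test on simulated counts of 14705 genes, 188 of 200 genes changed by 2-fold or more were called (94%), with 7 calls among the others. The simulation used the common variation for every gene and changed few genes, whereas 81.1% were called in the data. Its rates therefore do not carry over to the calls reported here. Replicates of a group differed by more than sampling noise (chi-square per gene 2.33 to 8.41).

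Named genes were those marked in the lists, the 10 with the largest difference per direction at 20 CPM or more, up to 4 per list and direction past the over 2-fold test, and the 10 highest of each table alone; other list members serve as examples, and *T* was named after its value was seen. The comparison, the 25 lists and the rule were chosen with earlier results of these data known. Some genes that the rule names are not reported here. Immunoglobulin variable segments and sex-linked marker genes were left out. Positions are from GENCODE 44. Symbols of the tables differed for 20 joined genes. Alternatives were DESeq2 1.42.0, other scalings, filters, a replicate block, a GC and length correction and each control replicate left out.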

Additional observations from a re-analysis of the deposited data

Results flagged for a closer look

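For 28 of the 152 named genes the line difference, MEC1 minus JVM2, differed between the control and 2B17 populations by more than 2-fold in the test of the interaction itself (edgeR glmTreat, adjusted over 14705 genes). Values below are log2 interactions, 2B17 minus control. Each population is 3 libraries a line. Of all genes tested, 2.83% passed the same test. Many named genes were picked by the size of their difference between the controls, and the same control libraries enter the interaction. The share among the named genes, and how many had a smaller 2B17 difference, therefore cannot be set against all genes.

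In 4 genes the difference was called in opposite directions in the populations. These were *TLR8* (-5.92), *VAV3* (-5.24) and *IFNGR1* (-2.19), higher in MEC1 among the controls only, and *ALOX5* (3.88), higher in JVM2 among the controls only. *VAV3*, an exchange factor of the B cell receptor pathway, had 17.7, 19.1 and 17.5 CPM in MEC1-2B17 and 40.3, 46.4 and 41.1 in JVM2-2B17. *ALOX5* had 2.02, 1.35 and 2.18 CPM and 0.771, 0.597 and 0.719.

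Genes higher in MEC1-CTRL with a smaller difference, or one of the other sign, between the 2B17 populations were *TLR4* (-3.38), *TRERF1* (-3.15), *MYO1F* (-3.04), *ALOX5AP* (-2.92), *KLF3* (-2.72), *IL18R1* (-2.17), *IGHG1* (-1.89) and *NRIP1* (-1.37). Genes higher in JVM2-CTRL with a smaller difference, or one of the other sign, were *SEPT10* (3.96), *FOXP1* (3.27), *CD38* (2.68), *LTBR* (1.85), *IGHM* (1.80), *IFIT1* (1.76), *SELPLG* (1.75) and *SDC1* (1.24). The difference was larger between the 2B17 populations for *CR2* (6.40) and *CMPK2* (2.37), higher in MEC1, and for *TCL1A* (-4.91), *LRRK2* (-4.48), *EOMES* (-2.90), *IL7R* (-2.10) and *ZEB2* (-2.0), higher in JVM2. *PTGER4* (-2.90), not called between the controls, was higher in JVM2-2B17, with 0.221, 0.403 and 0.530 CPM in MEC1-2B17 and 2.99, 1.91 and 2.52 in JVM2-2B17.

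Some of these rest on few reads. *LRRK2* had 0 counts and *TCL1A* 1 count over the MEC1-2B17 libraries, so the size of their interactions depends on the prior count. *FOXP1*, *CMPK2*, *CR2* and *TLR4* had 4, 7, 9 and 10 counts over the JVM2-2B17 libraries. Over the JVM2-CTRL libraries *TLR8*, *TLR4*, *MYO1F* and *TRERF1* had 5 counts each and *KLF3* 6. The control difference of *TLR8*, 3.97, ranged from 3.36 (without JVM2-CTRL replicate 2) to 4.73 (without JVM2-CTRL replicate 3) when single libraries were left out.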

How the results depend on the processing

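The count of genes that differed, 11933, ranged from 9833 (at least 10 counts in every library) to 13294 (genes of 1 table entered as 0 in the other) and the count over 2-fold from 2346 to 5120 under the same alternatives. At least 10 counts in every library gave 2346 genes over 2-fold, 1013 of them higher in MEC1, and 1333 higher in JVM2, against 3728, 1765 and 1963, as this filter left 11790 genes to test and removes genes near 0 in either line. DESeq2 called 11362 genes and both tools together 11352. Library size alone moved the median log2 difference of all genes by 0.17 and the share of called genes higher in MEC1 from 50.9% to 60.5%. Leaving out each control replicate gave 11246 to 11710 genes, 3529 to 3629 over 2-fold and 9166 to 9330 found again in the 2B17 populations. The replicate block gave 11886, and same-numbered samples did not deviate together (correlations of -0.017, 0.033 and -0.045). No pairing by number was therefore seen, although so few samples cannot exclude one. Genes of 1 table only at 10 CPM or more were 102 for MEC1, 159 at 5 CPM and 51 at 20 CPM, and 125 for JVM2, 182 and 74. Of the values of named genes under alternatives, 2673 kept their direction and side of the threshold, 1 was weaker and 1 stronger. The 1 that reversed was *HPRT1*, at -0.37 after removal of the GC and length trend, against 0.00, and the cause was not tested. Under library size alone, the HLA class I genes over 2-fold higher in JVM2-CTRL were 3 in place of 6, and the median of 17p was -0.93. JVM2 depth limits what can be said of genes below about 0.169 CPM.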
